A study of Mus musculus with 12 samples.

Results

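The Alu sites of this mouse data set are the intervals of a table of 3′-end read counts whose repeat family is given as exactly Alu. There were 47259 of them among 178431 intervals with readable counts, or 26.5%. In mouse, this family name covers the B1 elements. A further 2854 intervals carried Alu joined to another name and were not counted as members. Each interval is called a site below, because reads of this library type start where a poly(A) tail or an internal run of A primed reverse transcription. Nearly all of the Alu sites (97.6%) were 25 bases long, within a range of 13 to 63 bases.

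The RNA came from lumbar L4-L6 dorsal root ganglia (DRG), which hold the cell bodies of sensory neurons together with glia, vessels and connective tissue. The 12 libraries fall into 4 groups of 3: ribosome pulldown (IP) from injured ganglia, IP from naive ganglia, input from injured ganglia and input from naive ganglia. All groups came from Adv-Cre//Ribotag mice, in which Cre under the sensory-neuron promoter of advillin switches on an HA-tagged form of the ribosomal protein Rpl22, and HA was the target of the pulldown. One sciatic nerve was crushed, ganglia were taken 3 days later, and each replicate pooled 4 mice; the naive ganglia were the uncrushed ones of the same operated animals, so that no group came from unoperated mice. Input is RNA of the whole ganglion before pulldown. RNA was purified with RNeasy columns and sequenced from QuantSeq REV libraries, which read from the 3′ end of the RNA.

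B1 is a short interspersed element that descends from the RNA of the signal recognition particle (7SL RNA), as the primate Alu does. It is copied by RNA polymerase III from its own internal promoter, ends in a run of A and spreads through the reverse transcriptase of L1. B1 sequence is also carried as a passenger in introns, 3′ untranslated regions and intergenic transcripts made by RNA polymerase II, and both sources cannot be told apart from 3′-end counts alone. B2, the other abundant short element of mouse, comes from a tRNA and is also transcribed by RNA polymerase III. B4 and ID elements are further short families of rodents.

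Sequence is shown here because the priming point of a read lies at or next to the site, and because B1 copies resemble each other closely. It could be read for the 23 Alu sites that lie inside RefSeq promoter windows of GRCm38.p6, which run from 250 bases before to 50 bases after a gene start. Of these, 12 had at least 1 count. The 5 lines below give the sequence on the strand of the site, 5′ to 3′, with up to 60 bases before and up to 45 bases after. Capitals mark the 25 bases of the deposited interval, read as 0-based with an open end, which the files do not state. The Gm34450, S1pr4 and Gm51992 lines show an A run past the interval, the Eef2k line is the deepest site, and the Gm20045 line has no A run. The choice did not follow depth alone. The site in the Prune1 window, with 65 counts and an A run 21 bases past the interval, is not shown. It lacks the motif GAGTTC, which all 5 lines shown hold.
chr1:82824140-82824165 (+), Gm34450 window: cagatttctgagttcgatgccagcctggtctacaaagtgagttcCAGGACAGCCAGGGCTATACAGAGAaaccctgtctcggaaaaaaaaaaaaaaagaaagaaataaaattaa
chr10:81500103-81500128 (+), S1pr4 window: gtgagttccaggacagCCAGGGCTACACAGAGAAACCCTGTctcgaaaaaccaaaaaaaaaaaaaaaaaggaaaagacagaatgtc
chr12:32064566-32064591 (+), Gm51992 window: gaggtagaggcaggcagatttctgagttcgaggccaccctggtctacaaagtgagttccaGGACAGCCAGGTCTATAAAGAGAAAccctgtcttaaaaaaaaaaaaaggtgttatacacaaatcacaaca
chr7:120842587-120842612 (-), Eef2k window: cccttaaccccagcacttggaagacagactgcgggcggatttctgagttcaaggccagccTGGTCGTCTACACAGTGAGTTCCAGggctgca
chr1:171327513-171327538 (-), Gm20045 window: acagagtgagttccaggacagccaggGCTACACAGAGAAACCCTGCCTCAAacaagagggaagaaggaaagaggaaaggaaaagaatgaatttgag

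The site in the Gm34450 window lay outside genes and had 46 counts over all libraries. The one in the S1pr4 window, antisense to the sphingosine-1-phosphate receptor gene S1pr4, had 63. The one in the Gm51992 window lay outside genes and had 13. The one in the Eef2k window lay in Gm36449, within 5 kb of its 3′ end, and had 1025. The one in the Gm20045 window, antisense to Dedd, had 38. The lines of Gm34450, S1pr4 and Gm51992 read into an A run 13, 11 and 9 bases past the interval. Among the 18 sites whose window reached 60 bases past the interval, 14 held AAAAAA there, at a median of 13 bases. None of the 23 held AAAAAA or TTTTTT in the 60 bases before. The motif GAGTTC stood on the strand of the site in 12 of the 23 and on the other strand in 0. CTGTCT stood on the strand of the site in 8 and on the other strand in 3. These motifs, each searched on both strands over the 60 bases before, the interval and the 60 bases after, were picked with the sequences in view. Over all 32851 promoter windows of 300 bases, 19.2% held AAAAAA on either strand, 15.4% held GAGTTC and 23.9% held CTGTCT, and 1.14% had an A run of that kind in their last 60 bases. The S1pr4 and Gm20045 lines show a site with and a site without that run. A match is a description of these letters and does not tell where a read was primed.

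Library totals lay between 10045178 and 18687123 counts, and the reads named as rRNA repeats took 8.21% to 15.1% of them. Markers of sensory neurons summed to 15300 to 19753 CPM (counts scaled to the same library total) in IP from injured ganglia, against 9862 to 11187 in input from injured ganglia, and to 15171 to 20602 in naive IP, against 9868 to 11820 in naive input. Of these 10 markers, 5 were called higher in IP of injured and 3 in IP of naive ganglia by edgeR. Their median log2 was 0.56 and 0.35. Markers of Schwann cells were called lower in IP for 6 of 6 in both conditions (1003 to 1140 CPM against 2505 to 3397 in injured ganglia, and 858 to 1076 against 2389 to 3371 in naive ganglia), but were not at 0. Satellite glia markers summed to 776 to 1031 in IP of injured ganglia, against 1629 to 1848 in input, and macrophage markers to 8.81 to 83.2 against 193 to 259. The part of cell composition in the IP and input differences below was not tested, and in bulk RNA fewer cells of a type and less RNA per cell cannot be told apart. IP replicate 2 stood apart from the other IP libraries of both conditions in the Alu to B2 ratio and at several sites. Input replicate 1 of injured ganglia was low at 2 of the 10 most abundant Alu sites.

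Alu sites were many but thinly covered. They held 1.26% of all counts (2145899), and 10254 of them (21.7%) had no count in any library. Their median total over the 12 libraries was 7 counts, against 19 for the 48522 B2 sites and 319 for the 31692 sites outside repeats. Only 2653 Alu sites reached 100 counts. The 10 deepest sites held 9.97% of Alu counts and the 100 deepest 32.5%. Strand was near balance, with 24138 sites on the minus and 23121 on the plus strand. Many sites shared a count profile. Of the 2116 Alu sites with at least 120 counts, 437 (20.7%) had counts in the 12 libraries that differed from those of another site by at most 5% of their total, 121 of them by nothing, and 399 of these partners lay on another chromosome. The same share was 19.9% for B2 and 0.886% for sites outside repeats. How reads with several matches were assigned is not given in the sources used here. For such sites the named gene is therefore uncertain.

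Most Alu sites lay away from the ends of genes, while the counts were spread otherwise. Sites outside annotated genes numbered 18025 (38.1%) and held 27.1% of Alu counts. Sites over 5 kb upstream of the 3′ end of a gene on the same strand numbered 14243 (30.1%) with 25.8% of counts. Sites antisense to a gene numbered 11596 (24.5%) with 15.8% of counts. The 1419 sites within 5 kb of a same-strand 3′ end (3%) held 24.3% of Alu counts. The 167 sites at such an end (0.353%) held 3.53%. These lay between 100 bases before the end and 200 bases past it. A further 1676 sites lay in genes whose strand was unresolved, and 133 in several genes. The median total ran from 5 counts antisense and 6 outside to 22 within 5 kb of a 3′ end and 57 at it. Of the sites outside genes, 1207 lay at most 5 kb past a same-strand 3′ end (6.7% of them, 13.2% of their counts), 6095 lay 5 to 50 kb past one and 10723 further away. Exons and introns were not annotated in the tables used here, so a site over 5 kb upstream may lie in either.

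The 10 most abundant Alu sites included 6 within 5 kb of a 3′ end. The site in Gm52122 (chr14:120290655-120290680) had 274, 227 and 308 CPM in IP of injured ganglia, 396, 219 and 344 in naive IP, 178, 187 and 225 in injured input, and 208, 194 and 219 in naive input. On this TMM scale IP lay above input in injured ganglia, while in naive ganglia the lowest IP and the highest input value were both 219. On library totals alone, IP and input overlapped in injured ganglia. Neither difference passed (adjusted p = 0.195 in injured and 0.0921 in naive ganglia, edgeR). The counts of the Gm52122 site differed by 0.679% from those of a site in Tmem50a, so that its place is uncertain. A site 505 bases from the 3′ end of Tgoln1 (chr6:72608913-72608938), the gene of a trans-Golgi membrane protein, had 169, 169 and 194 CPM in injured IP, 174, 193 and 171 in naive IP, 120, 168 and 98.9 in injured input, and 141, 138 and 113 in naive input. On this TMM scale IP lay above input in each condition, while on library totals alone they overlapped in both. Neither difference passed (adjusted p = 0.175 in injured and 0.169 in naive ganglia, edgeR). A site 450 bases from the end of Cd59a (chr2:104114948-104114973), a complement regulator, had 113, 171 and 130 CPM in injured IP, 70.6, 119 and 94.2 in naive IP, 121, 148 and 129 in injured input, and 107, 113 and 114 in naive input. IP and input overlapped in both conditions. Injured input lay above naive input, but the difference did not pass (log2 0.25, adjusted p = 0.883, edgeR). The same rank list held sites of Kif5b, the kinesin heavy chain gene (mean 190 CPM, 1247 bases from its end), Tmem234 (81.4 CPM, 690 bases), the mitochondrial gene Opa3 (68.4 CPM, 209 bases, chr7:19246596-19246621) and Hecw1, a HECT ubiquitin ligase gene (68.4 CPM, 1657 bases, chr13:14228083-14228108).

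The 2 sites of that list where input replicate 1 of injured ganglia stood apart were an antisense one and one far from its gene's end. The site antisense to 2810471M01Rik (chr11:28684094-28684119) had 227, 249 and 93.7 CPM in injured IP, 192, 112 and 67.7 in naive IP, 7.87, 118 and 146 in injured input, and 113, 59.7 and 198 in naive input. The site in the zinc finger gene Zfp810 (chr9:22305660-22305685, 28935 bases upstream of its 3′ end) had 127, 158 and 54.4 CPM in injured IP, 123, 77.5 and 42.9 in naive IP, 5.39, 85.4 and 95.9 in injured input, and 77.5, 42.8 and 121 in naive input. Within each group the order of the libraries was the same at both sites, and neither site passed the test between IP and input (adjusted p = 0.416 and 0.524 in injured ganglia, edgeR).

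As a share of each library, Alu sites were lower in IP than in input. They took 1.03, 1.17 and 0.967% of counts in injured IP, 1.11, 1.08 and 0.991% in naive IP, 1.36, 1.60 and 1.63% in injured input, and 1.36, 1.59 and 1.52% in naive input. All IP values lay below all input values, and the injured and naive values overlapped. The means were 1.06 ± 0.106% in injured IP against 1.53 ± 0.150% in injured input (SD, n = 3 each), and 1.06 ± 0.0602% in naive IP against 1.49 ± 0.119% in naive input. The differences were -0.473 and -0.430 percentage points, each with an exact two-sided permutation p of 0.1, the smallest that 3 against 3 libraries allow. Injured minus naive was -0.00268 points in IP (exact permutation p = 1) and 0.0401 points in input (exact permutation p = 0.6). Without the rRNA counts in the total, the IP differences were -0.517 and -0.473 points.

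The number of Alu sites with at least 10 counts was 2112, 2381 and 2335 in injured IP, 2508, 2271 and 2488 in naive IP, 3075, 4528 and 5011 in injured input, and 2910, 4539 and 4086 in naive input. IP lay below input throughout, although the deepest libraries were IP ones, and the lowest input values came from the shallowest libraries. The means were 2276 ± 144 against 4205 ± 1008 in injured ganglia and 2422 ± 131 against 3845 ± 841 in naive ganglia (exact permutation p = 0.1 each). Sites outside repeats with at least 10 counts overlapped between IP and input (exact permutation p = 0.3 in injured and 0.4 in naive ganglia).

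**Figure D1:**
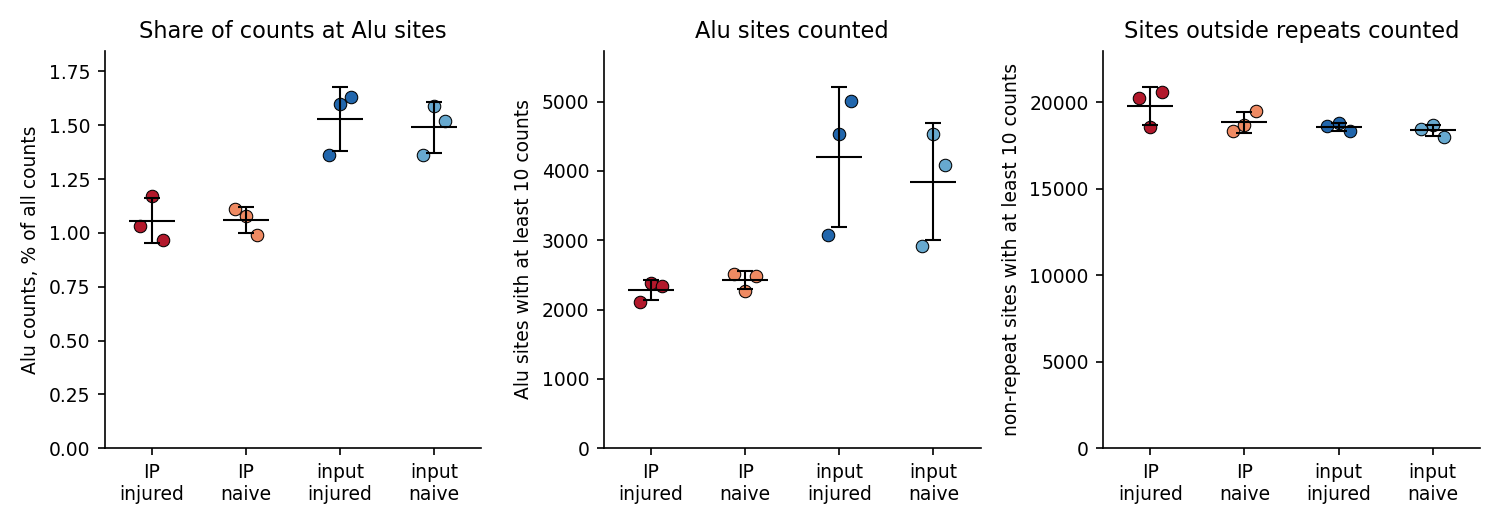
Share of library counts at Alu sites (percent, left), number of Alu sites with at least 10 counts (middle) and number of sites outside repeats with at least 10 counts (right). Points are the 12 libraries by group, the line is the group mean and the bars are SD (n = 3). The 6 IP libraries lie at 0.967 to 1.17% of counts and the 6 input libraries at 1.36 to 1.63%.

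Set against other families, the Alu sites held a middle place. The log2 ratio of Alu to B2 counts was -1.46, -2.28 and -1.48 in injured IP, -1.01, -1.91 and -1.06 in naive IP, -3.31, -3.26 and -3.31 in injured input, and -2.55, -2.81 and -2.75 in naive input. IP was higher by 1.55 in injured and 1.38 in naive ganglia without overlap (exact permutation p = 0.1 each), and by 1.82 and 1.67 without IP replicate 2, which was the low one in both. In input, injured minus naive was -0.589 without overlap (exact permutation p = 0.1), while in IP the groups overlapped (-0.415, exact permutation p = 0.4). Set side by side by replicate number, injured minus naive was -0.45, -0.37 and -0.42 in IP and -0.76, -0.45 and -0.55 in input, below 0 in each, but the labels do not say that equal numbers share mice. The log2 ratio of Alu to B4 counts was 3.29, 3.54 and 3.26 in injured IP, 3.24, 3.21 and 3.18 in naive IP, 3.68, 3.83 and 4.03 in injured input, and 3.39, 3.65 and 3.81 in naive input, which gave IP minus input differences of -0.481 and -0.409 (exact permutation p = 0.1 each). Injured minus naive was 0.155 in IP without overlap (exact permutation p = 0.1) and 0.227 in input with overlap (exact permutation p = 0.2). The log2 ratio of Alu to ID counts was 5.47, 6.04 and 5.66 in injured IP, 5.86, 5.84 and 5.58 in naive IP, 5.41, 5.76 and 5.62 in injured input, and 5.29, 5.38 and 5.35 in naive input. IP minus input was 0.122 in injured ganglia with overlap (exact permutation p = 0.6) and 0.419 in naive ganglia without overlap (exact permutation p = 0.1), and injured minus naive was -0.0398 in IP with overlap (exact permutation p = 0.9) and 0.258 in input without overlap (exact permutation p = 0.1). In both conditions Alu sites stood higher in IP relative to B2 and lower relative to B4.

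The same order came out of a fit over the summed counts of 180 repeat families, scaled by TMM, edgeR's trimmed mean, over those sums. In that comparison 9.44% of families were called lower in IP of injured ganglia and 8.89% in naive ganglia (20% and 12.8% in either direction, and 3.89% higher in naive ganglia, edgeR quasi-likelihood test, adjusted p under 0.05). The Alu sum was 0.709 of input in injured ganglia (log2 -0.50 ± 0.11 SE, adjusted p = 0.00744) and 0.72 of input in naive ganglia (log2 -0.47 ± 0.11, adjusted p = 0.0172). With scaling factors taken from single sites, the naive value was -0.23 with an adjusted p of 0.08, and the injured one was -0.29 with an adjusted p of 0.0314. The B2 sum had log2 -1.96 ± 0.32 and -1.79 ± 0.32 in injured and naive ganglia, the ID sum -0.62 and -0.89, the B4 sum -0.01 and -0.06, the L1 sum 0.23 and 0.08, and the sum of sites outside repeats 0.25 and 0.14. Injury gave the Alu sum log2 0.02 ± 0.11 in IP (adjusted p = 0.995, -0.04 with factors from single sites) and 0.05 ± 0.11 in input (adjusted p = 0.981). The interaction, the injury effect in IP minus that in input, was -0.02 (adjusted p = 0.953). In this fit 0 of 180 families were called for injury in IP, and 0.556% were called in input.

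Position separated the Alu counts more than the family total did. At 3′ ends, Alu sites held 459, 452 and 474 CPM of the library total in injured IP, 483, 454 and 456 in naive IP, 414, 442 and 387 in injured input, and 403, 430 and 417 in naive input. IP lay above input, without overlap, in both conditions. Over 5 kb upstream they held 2242, 2667 and 2128 in injured IP, 2622, 2488 and 2162 in naive IP, 3783, 4496 and 4706 in injured input, and 3962, 4574 and 4507 in naive input. Here IP lay below input without overlap. Within 5 kb of a 3′ end the values were 2924, 3162 and 2902 in injured IP, 3045, 3149 and 3120 in naive IP, 2842, 3281 and 2798 in injured input, and 2999, 3425 and 3044 in naive input, all overlapping.

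The classes that do not follow a gene's own strand were lower in IP. Antisense sites held 1633, 1957 and 1409 CPM of the library total in injured IP, 1719, 1647 and 1417 in naive IP, 2135, 2625 and 2749 in injured input, and 2107, 2504 and 2462 in naive input. Sites outside genes held 2668, 3100 and 2398 in injured IP, 2804, 2665 and 2368 in naive IP, 3883, 4645 and 5131 in injured input, and 3663, 4386 and 4300 in naive input. IP and input did not overlap in either class. Naive and injured values overlapped within IP and within input for every one of the 5 classes named so far.

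**Figure D2:**
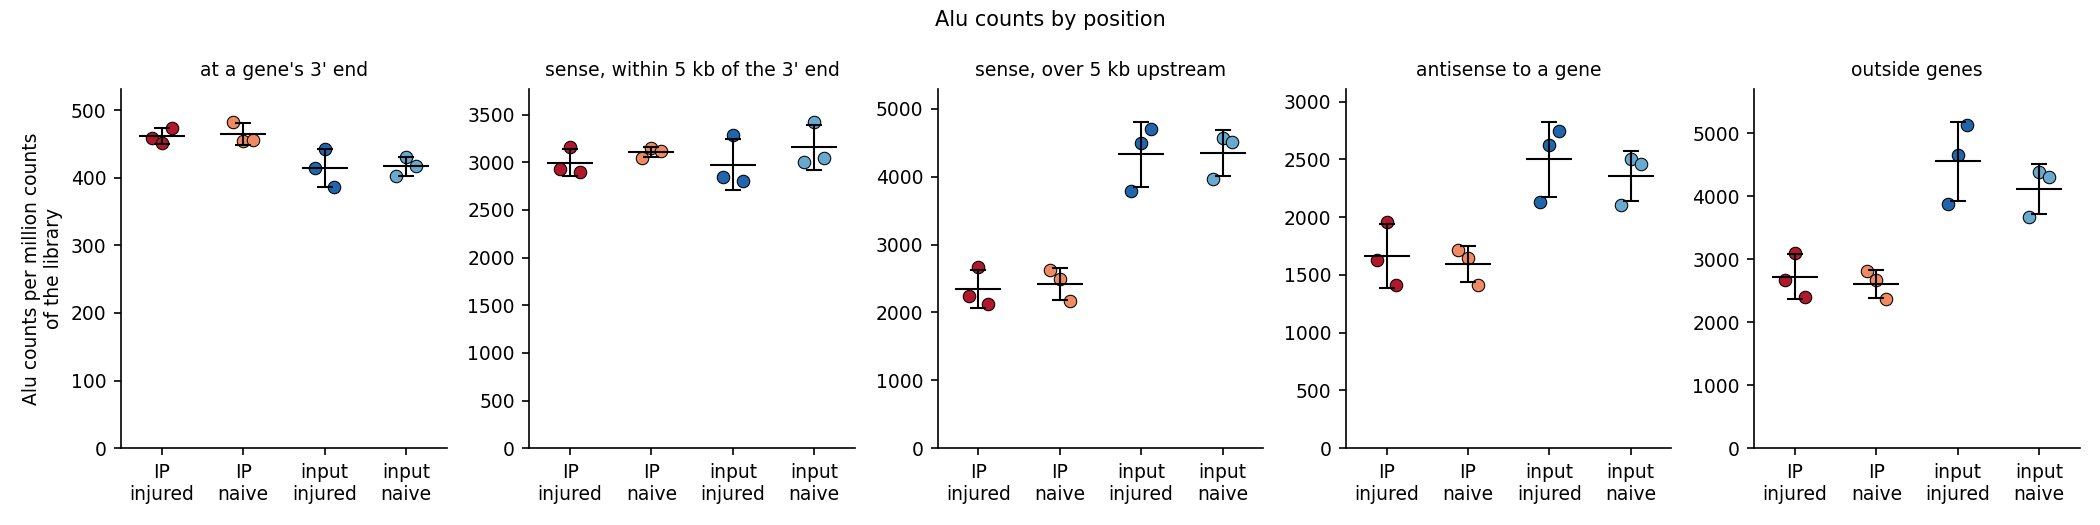
CPM of the library total at Alu sites by place in GRCm38 genes, 1 panel per class. Points are libraries, the line is the group mean and the bars are SD (n = 3). IP lies below input in the classes over 5 kb upstream, antisense and outside, with 2128 to 2667 in IP against 3783 to 4706 in input over 5 kb upstream. At 3′ ends IP lies above input (452 to 483 against 387 to 442). Within 5 kb of a 3′ end IP and input overlap.

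A single ratio sums this up within each library, free of any scaling between libraries. The log2 ratio of counts at or within 5 kb of a same-strand 3′ end over counts further upstream was 0.593, 0.438 and 0.666 in injured IP, 0.428, 0.534 and 0.726 in naive IP, -0.216, -0.272 and -0.563 in injured input, and -0.220, -0.247 and -0.381 in naive input. It was above 0 in all 6 IP libraries and below 0 in all 6 input libraries. The means were 0.566 ± 0.116 against -0.351 ± 0.186 in injured ganglia (difference 0.916) and 0.563 ± 0.151 against -0.282 ± 0.0863 in naive ganglia (difference 0.845), each with an exact permutation p of 0.1. Injured minus naive was 0.00278 in IP (exact permutation p = 1) and -0.0682 in input (exact permutation p = 0.7).

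As a percentage of Alu counts, sites at 3′ ends took 4.40 ± 0.53% in injured IP against 2.73 ± 0.339% in injured input, and 4.39 ± 0.198% in naive IP against 2.81 ± 0.142% in naive input. Sites in genes on the same strand, all distances together, took 51.7% in injured IP against 48.6% in injured input, and 53.4% in naive IP against 51.2% in naive input, and sites outside genes took 25.7% against 29.7% and 24.6% against 27.6%. Over the 20 such comparisons none had an adjusted p below 0.25 in exact permutation tests. When sites with at least 10 counts were counted in place of reads, the same-strand class turned direction, with -3.84 and -6.23 points, and so did the outside class, with 1.44 and 3.42 points in injured and naive ganglia.

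In a fit over 198 sums of family and position, 13.1% were lower and 14.1% higher in IP of injured ganglia, and 13.6% were lower and 8.08% higher in IP of naive ganglia. Of the 7 Alu sums, 4 were lower and 1 higher in injured ganglia, and 4 lower in naive ganglia. Alu over 5 kb upstream had log2 -0.76 ± 0.11 (adjusted p = 0.000535) in injured and -0.77 ± 0.11 (adjusted p = 0.00157) in naive ganglia. Alu outside genes had -0.62 ± 0.12 (adjusted p = 0.00234) and -0.58 ± 0.12 (adjusted p = 0.00609). These calls held when any 1 library was left out and under each scaling tried. Antisense Alu had -0.47 ± 0.13 (adjusted p = 0.0157) in injured and -0.49 ± 0.13 (adjusted p = 0.0189) in naive ganglia; the naive call was lost without IP naive 3, input naive 2 or input naive 3 (adjusted p = 0.0722, 0.0601 and 0.0659) and with factors from single sites (0.0654). The strand-unresolved class had -0.51 ± 0.12 (adjusted p = 0.00748) and -0.39 ± 0.12 (adjusted p = 0.0358), and the naive call was lost without IP naive 1, 2 or 3 or input naive 2 or 3 (adjusted p = 0.158, 0.0781, 0.0792, 0.169 and 0.108).

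At the gene ends the picture was scale-dependent. Alu at 3′ ends had log2 0.28 ± 0.09 in injured ganglia (adjusted p = 0.0302) and 0.23 ± 0.09 in naive ganglia (adjusted p = 0.079), but -0.02 and 0.08 when libraries were scaled on sites outside repeats, and 0.41 and 0.42 with factors from single sites. The injured call was lost without IP injured 1 or 3 or input injured 2 or 3 (adjusted p = 0.156, 0.37, 0.0671 and 0.334). Within 5 kb of a 3′ end the values were 0.13 ± 0.08 (adjusted p = 0.232) and 0.06 ± 0.08 (adjusted p = 0.651), and turned to -0.17 and -0.10 when scaled on sites outside repeats. The class in several genes had 0.02 ± 0.15 and 0.06 ± 0.15 (adjusted p = 0.93 and 0.811), also with a turned sign on that scaling (-0.27 and -0.09). On each of these 3 scalings the Alu class with the lowest value was that over 5 kb upstream, and the one with the highest was that at 3′ ends. Injury moved no Alu class past the threshold, with log2 between -0.09 and 0.06 in IP and between -0.14 and 0.09 in input, and none of the 198 sums was called in either (0% each). When libraries were scaled on sites outside repeats, the input values turned to 0.11 over 5 kb upstream, 0.11 at 3′ ends and 0.03 within 5 kb of them.

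B2 ran in the same direction from far upstream to the 3′ end, and sites outside repeats did not. B2 had -1.94 ± 0.31 and -1.84 ± 0.31 over 5 kb upstream in injured and naive ganglia, -1.15 and -0.87 within 5 kb, and -0.19 and -0.11 at 3′ ends (adjusted p = 0.198 and 0.464). Sites outside repeats had 0.42 ± 0.09 and 0.28 ± 0.09 over 5 kb upstream (adjusted p = 0.003 and 0.0358), 0.37 and 0.23 within 5 kb, and 0.30 and 0.18 at 3′ ends. On scaling by sites outside repeats these last values lay between 0.00 and 0.13. The difference between families in this order was not tested.

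**Figure D3:**
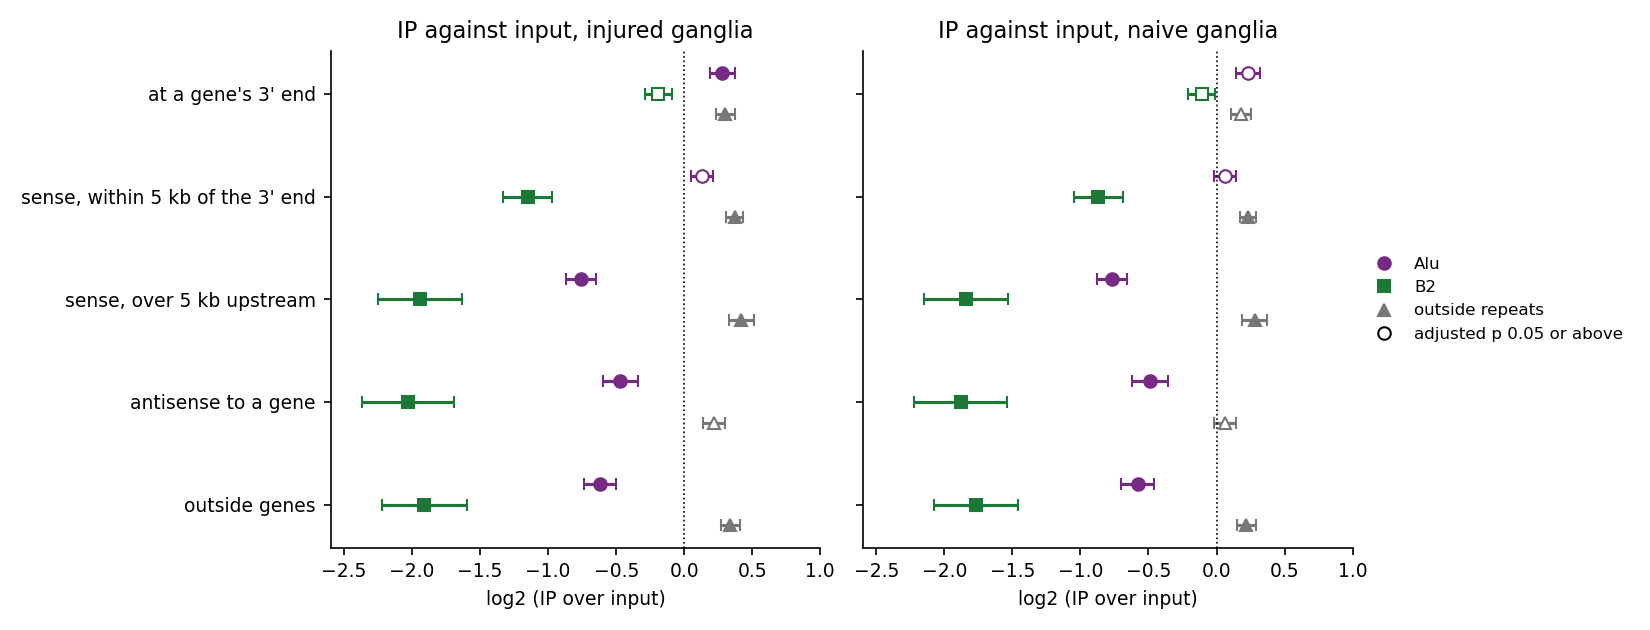
Log2 of IP over input for the summed counts of each position class, injured ganglia on the left and naive ganglia on the right. Circles are Alu, squares B2 and triangles sites outside repeats; bars are SE of the fit and open symbols have an adjusted p of 0.05 or more. Alu runs from -0.76 over 5 kb upstream to 0.28 at 3′ ends in injured ganglia, a value that is -0.02 when libraries are scaled on sites outside repeats.

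Few single Alu sites were called. Of the 47259, 4044 passed the filter on low counts, among 46229 sites in all. The share that passed was 45.5% at 3′ ends, 30% within 5 kb of one, 9.77% over 5 kb upstream, 7.07% outside genes and 6.25% antisense. The filter works on counts in any group, so a site high in 1 group can pass through that group alone. In IP against input, 14 Alu sites were higher and 25 lower in injured ganglia, and 3 were higher and 23 lower in naive ganglia. Over all sites tested, 5% were called in injured (2.5% higher, 2.49% lower) and 4.27% in naive ganglia (1.49% higher, 2.77% lower), against 0.964% and 0.643% of Alu sites. Shares of 6.44% and 6.6% were called among B2 sites, and of 5.36% and 3.98% among sites outside repeats.

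These counts of calls rested on single libraries. The 39 calls of injured ganglia became 1 without IP injured 1, 2 without IP injured 3, and 8, 9 and 11 without input injured 1, 2 and 3. In naive ganglia, the 26 calls dropped to 3 when IP replicate 1 was left out and to 7 when replicate 3 was, but numbered 55 in the absence of replicate 2. Leaving out the naive input libraries in turn gave 7, 9 and 9 calls. After near-identical sites were merged, the called profiles numbered 10 higher and 18 lower in injured ganglia, and 3 higher and 19 lower in naive ganglia. The sites called lower in both conditions numbered 13, and 0 were called higher in both.

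Medians over single tested Alu sites were lower in IP away from 3′ ends, but depend on the filter. A site that passed through its input counts alone is low in IP by selection. More Alu sites reached 10 counts in input than in IP, so the medians add no separate evidence to the sums. The median log2 of IP over input of tested Alu sites was -0.81 in injured and -0.65 in naive ganglia, against -0.10 and -0.14 over all sites tested. By class the medians were -1.45 and -1.36 over 5 kb upstream, -0.82 and -0.49 outside genes, -0.64 and -0.36 antisense, 0.23 and 0.14 within 5 kb of a 3′ end, and 0.21 and 0.48 at it. For injury the Alu medians were 0.00 in IP and 0.02 in input, against 0.06 and 0.06 over all sites.

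**Figure D4:**
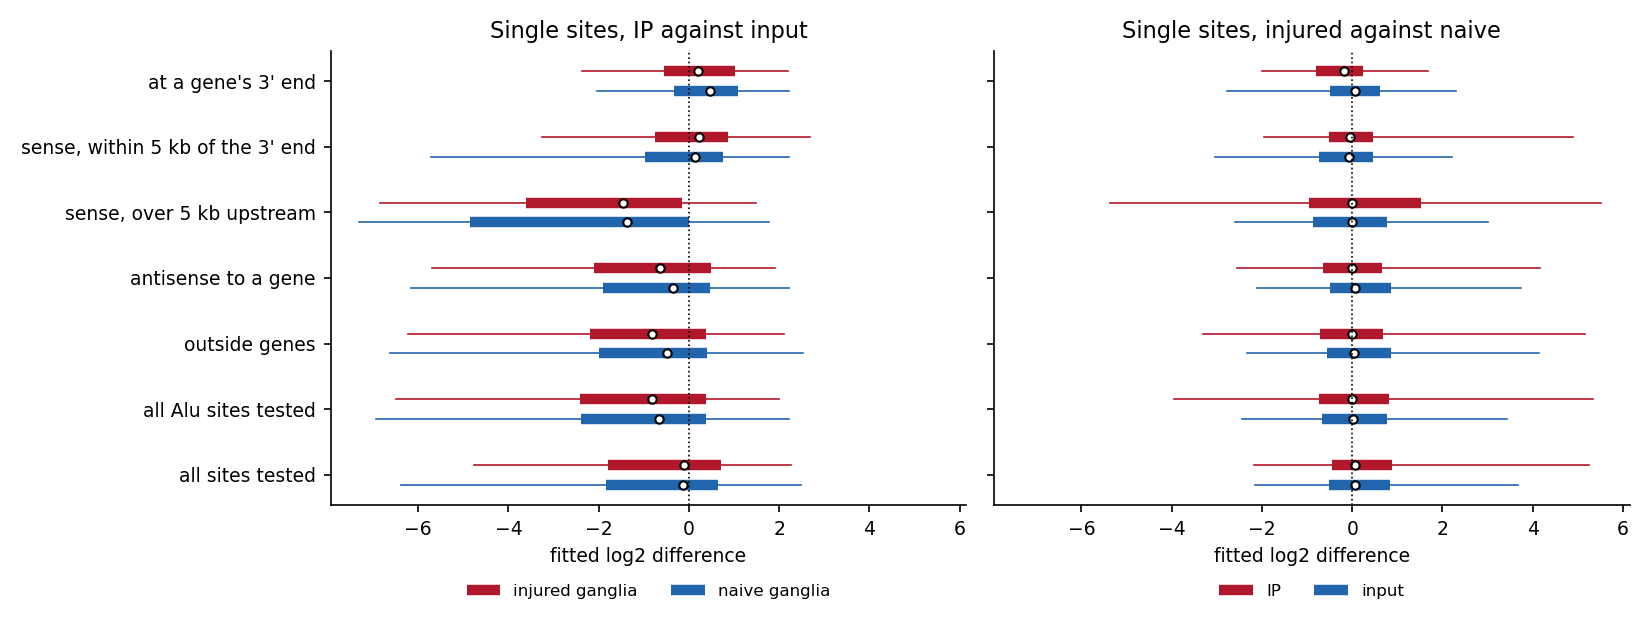
Log2 differences of single Alu sites by position class, IP over input on the left (injured and naive ganglia) and injured over naive on the right (IP and input). The circle is the median, the thick bar the interquartile range and the thin bar the 5th to 95th percentile of the sites that passed the filter. Medians run from -1.45 over 5 kb upstream to 0.23 within 5 kb of a 3′ end in injured IP over input, and lie near 0 for injury.

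The use of a site within its gene sets its counts against the other sites of the same gene, and so does not depend on the level of the gene. There were 1729 Alu sites in 1406 genes among 23907 sites tested. Their median log2 of relative use in IP over input was -1.03 in injured and -0.80 in naive ganglia, against -0.01 over all sites in both. Over 5 kb upstream, the 1297 Alu sites of 1053 genes had medians of -1.61 and -1.50, and 78.4% and 75.5% of them lay below 0, against 50.9% and 51.7% of all sites. At an unadjusted p under 0.05 there were 226 lower and 14 higher in injured, and 304 lower and 16 higher in naive ganglia. The share of all sites at that threshold is not given for site use, here or for injury below. These unadjusted counts thus have no background. Within 5 kb of a 3′ end the 377 Alu sites had medians of -0.01 and -0.04, and at the end the 55 sites had -0.05 and 0.04. All of these sites passed the same kind of filter, so the limit given for the single-site medians holds here too.

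After adjustment over all sites, 1 Alu site was called for use in injured ganglia (background 0.188%, and 0.0167% higher) and 2 in naive ganglia (background 0.498%, and 0.046% higher), all lower in IP. The site in Fbxo9 was called in both conditions and that in Ggnbp2 in naive ganglia; whether the 2 conditions differ at Ggnbp2 had an adjusted p of 0.809. For injury 0 Alu sites were called by edgeR in IP or input (background 0.0544% and 0.0125%), with 169 and 81 at an unadjusted p under 0.05. No other tool was run on site use.

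Both of these sites had IP groups without a count. The site in Ggnbp2 (chr11:84855522-84855547, 23173 bases upstream of its 3′ end) had 10, 15 and 37 counts in injured IP, 0, 0 and 0 in naive IP, 52, 13 and 84 in injured input, and 33, 62 and 35 in naive input. It was at least 47.2-fold lower in IP than in input of naive ganglia, against a floor of 3 counts over the group (adjusted p = 0.0139, and 0.00871 for its use within the gene), and the call was lost without IP naive 1 or 3 (adjusted p = 0.0538 and 0.0566). The site in Fbxo9 (chr9:78096350-78096375, 14863 bases upstream), the gene of an F-box protein of a ubiquitin ligase, had 0 counts in all 6 IP libraries, 17, 56 and 31 in injured input and 28, 102 and 19 in naive input. It was at least 36.6-fold lower in injured ganglia (adjusted p = 0.0302) and at least 54.1-fold lower in naive ganglia (adjusted p = 0.0286), and for use the adjusted p was 0.0392 and 0.015. The injured call was lost on leaving out any 1 library, and the naive one on leaving out 5 of 6. Its 12 counts are identical to those of a site in Gm41143 (chr14:45393489-45393514), and the gene is therefore uncertain.

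The single-site calls below are fragile: of 34 calls of named sites, 2 held on leaving out each library in turn, those of Mettl16 and of Gm32525 in naive ganglia, while all 34 were also called by DESeq2. The 3 sites called higher in IP of naive ganglia lay 787 to 8762 bases upstream of a 3′ end. In Mettl16, the gene of an RNA methyltransferase, the site 8762 bases upstream (chr11:74818081-74818106) had 11.9, 10.2 and 10.4 CPM in injured IP, 10.8, 10.5 and 15.7 in naive IP, 5.48, 2.36 and 4.87 in injured input, and 2.06, 0.639 and 0.517 in naive input. IP lay above input in both conditions. The fit gave log2 3.53 ± 0.63 in naive ganglia (adjusted p = 0.0108, at most 0.0490 with any 1 library left out) and 1.35 in injured ganglia (adjusted p = 0.186). The interaction had an adjusted p of 0.933 and did not pass.

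Dffa encodes an inhibitor of the caspase-activated DNase, and its site (chr4:149118825-149118850, 1816 bases upstream) had 89.7, 40.8 and 106 CPM in injured IP, 72.1, 26.8 and 94.3 in naive IP, 27, 21.1 and 31.6 in injured input, and 11.9, 23.6 and 21 in naive input. IP replicate 2 was the lowest IP value in both conditions. The naive difference was log2 1.77 ± 0.45 (adjusted p = 0.0439). Acp2 encodes a lysosomal acid phosphatase, and its site (chr2:91213299-91213324, 787 bases upstream) had 41.5, 25.5 and 32.5 CPM in injured IP, 58.9, 22.1 and 57.1 in naive IP, 14, 12.2 and 15.2 in injured input, and 11.9, 18.9 and 15.5 in naive input, with log2 1.58 ± 0.36 in naive ganglia (adjusted p = 0.0302). Each of these calls held on leaving out 1 of the 6 libraries and was lost on leaving out any of the other 5.

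Of the 14 sites called higher in injured IP, 5 lay over 5 kb upstream, 3 outside genes, 2 antisense and 2 at a 3′ end. They included one of Deptor, an inhibitor of mTOR (chr15:55252733-55252758, 6528 bases upstream). It had 129, 115 and 133 CPM in injured IP, 128, 115 and 162 in naive IP, 70.7, 79.7 and 66.7 in injured input, and 98.4, 118 and 112 in naive input, with log2 0.80 ± 0.17 in injured ganglia (adjusted p = 0.0199) and -0.02 for its use within the gene. IP and input overlapped in naive ganglia. The site at the 3′ end of Hspa9, the mitochondrial Hsp70, had 21.3, 30.3 and 37.1 CPM in injured IP against 6.28, 8.08 and 17.4 in injured input (log2 1.48 ± 0.38, adjusted p = 0.0436). A site in Scmh1, a Polycomb gene (chr4:120445128-120445153, 85060 bases upstream), had 23.7, 4.32 and 19.9 CPM in injured IP against 3.09, 1.97 and 2.7 in injured input (log2 2.63 ± 0.69, adjusted p = 0.0446). IP injured 2 was again the low one. The counts of the Scmh1 site differed by 8.14% from those of the Alu site antisense to Trappc12 described below. That is above the 5% limit for near-identical sites, but the place of the Scmh1 site may be uncertain too. A site outside genes, 2776 bases past Vps4b (chr1:106768000-106768025), had 8.48, 6.4 and 5.41 CPM against 1.15, 0.263 and 0.461 (log2 3.44 ± 0.74, adjusted p = 0.0205).

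Another 7 of the 14 came in sets of near-identical sites. One pair lay in Cdrt4 (chr11:62957727-62957752) and antisense to Trappc12 (chr12:28735074-28735099). The Cdrt4 site had 25.7, 4.48 and 21.9 CPM in injured IP, 20.1, 4.14 and 20.8 in naive IP, 3.18, 2.23 and 2.7 in injured input, and 2.9, 2.56 and 3.76 in naive input. IP replicate 2 lay near the input values in both conditions. The log2 value was 2.68 ± 0.70 in injured ganglia (adjusted p = 0.0436), and 2.70 for its partner (adjusted p = 0.0439). A trio lay in Araf, a Raf kinase gene (chrX:20822328-20822364), antisense to Naa25 (chr5:121409680-121409705) and outside genes (chr11:30494695-30494720), with 50, 23.9 and 51.5 CPM in injured IP against 14.7, 10.4 and 13.6 in injured input (log2 1.70 ± 0.42). Another pair lay in Ppp3cc, a calcineurin catalytic subunit gene (chr14:70253926-70253951), and outside genes (chr4:148640554-148640579), with 76.3, 51.1 and 89 CPM against 20.8, 23.2 and 39.6 (log2 1.37 ± 0.33, adjusted p = 0.0339).

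Of the 25 sites called lower in injured IP, 11 lay outside genes, 9 over 5 kb upstream, 3 antisense and 2 within 5 kb of a 3′ end; of the 23 in naive IP, 11 lay outside, 5 over 5 kb upstream, 3 antisense and 3 within 5 kb. The site in Sort1, the gene of the sorting receptor sortilin (chr3:108323409-108323434, 38098 bases upstream), had 0.133, 1.92 and 0.608 CPM in injured IP, 5.72, 10.9 and 0.816 in naive IP, 14.5, 9.78 and 21.1 in injured input, and 7.2, 15.3 and 9.97 in naive input. Injured IP lay below every input library, and naive IP overlapped with input. The fit gave log2 -4.10 ± 0.97 (adjusted p = 0.03), and the injury difference within IP had log2 -2.72 and an adjusted p of 0.411. Sites at 0 in injured IP were those of Cpd, carboxypeptidase D (chr11:76819264-76819289, at least 22.5-fold lower than input, adjusted p = 0.0192), the splicing factor gene Mbnl2 (chr14:120329347-120329372, at least 38.3-fold, adjusted p = 0.0263), Smad1, a transducer of BMP signals (chr8:79376614-79376639, at least 26.0-fold, adjusted p = 0.0393), and Csmd1 (chr8:17433563-17433588, at least 23.9-fold, adjusted p = 0.0475).

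One set of 4 identical sites was lower in both conditions. It comprised Ift172, a ciliary transport gene (chr5:31273653-31273678), a site antisense to Pla2g10os and 2 sites outside genes, each with 0, 0 and 1 counts in injured IP, 0, 0 and 0 in naive IP, 20, 67 and 54 in injured input, and 6, 13 and 26 in naive input. Input was 149 times IP in injured ganglia, with an exact counting interval of 26.3 to 5917 (adjusted p = 0.044), and IP was at least 16.3-fold lower in naive ganglia (adjusted p = 0.0479). Leaving out any 1 library ended both calls. Sites at 0 in naive IP, but with counts in injured IP, were also called lower in naive ganglia in St3gal4, a sialyltransferase gene (chr9:35112883-35112908, at least 33-fold, adjusted p = 0.0483), 293 bases from Ints1 (chr5:139775983-139776008, at least 42.5-fold, adjusted p = 0.0238), and at chr5:125469613-125469638 (at least 59.9-fold, adjusted p = 0.0276).

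The next 2 called sites, both in genes of Schwann cells, were chosen after their values were seen. Other sites, in genes outside the marker lists, were called lower in IP too. That of Snhg11 (chr2:158381559-158381584) had log2 -1.57 ± 0.35 in injured and -1.48 ± 0.35 in naive ganglia (adjusted p = 0.0227 and 0.0314, edgeR). Ncmap is a gene of peripheral myelin, and its Alu site (chr4:135369919-135369944, 355 bases from the 3′ end) had 41, 266 and 315 counts in injured IP, 60, 380 and 189 in naive IP, 1041, 1522 and 1635 in injured input, and 1083, 1557 and 1538 in naive input. All IP libraries lay far below all input libraries. The log2 values were -2.80 ± 0.69 in injured (adjusted p = 0.0348) and -2.76 ± 0.68 in naive ganglia (adjusted p = 0.0395). Dhh encodes desert hedgehog, a signal of Schwann cells, and its site (chr15:98891161-98891186, 9558 bases upstream) had 74, 102 and 119 counts in injured IP, 194, 87 and 117 in naive IP, 160, 262 and 376 in injured input, and 182, 267 and 293 in naive input (log2 -1.47 ± 0.38 in injured ganglia, adjusted p = 0.045). The Schwann cell marker list had a median log2 of -3.11 in injured and -3.16 in naive ganglia; its part in these results was not tested.

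Of all Alu sites, 1 was called for injury. In IP, 0 of 4044 Alu sites passed in edgeR (17 higher and 5 lower by DESeq2), against 0.27% of all sites. In input, 1 was higher and 0 lower (10 and 6 by DESeq2), against 0.195% of all sites. The interaction called 0 Alu sites in edgeR and in DESeq2, and 0% of all sites. At an unadjusted p under 0.05 in edgeR there were 280 Alu sites for injury in IP (6.92%, against 9.21% of all sites). There were 183 in input (4.53% against 9.15%) and 190 for the interaction (4.7% against 5.16%).

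The called one was chr3:86961791-86961819, outside genes and 24781 bases from Cd1d2, a gene of lipid antigen presentation. It had 43, 22 and 37 counts in injured IP, 0, 0 and 0 in naive IP, 99, 131 and 80 in injured input, and 0, 0 and 0 in naive input. It was thus counted in all 6 injured libraries and in none of the naive ones. It was at least 98.8-fold higher in injured than in naive input (adjusted p = 0.0381) and at least 33.6-fold higher in IP (adjusted p = 0.0567). The input call was lost when any 1 library was left out (adjusted p between 0.103 and 0.171), and was kept by DESeq2 (adjusted p = 1.53e-07).

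The next sites by p did not pass. The site 9319 bases past the 3′ end of Shprh (chr10:11226902-11226927), the gene of a ubiquitin ligase with a helicase domain, had 10.9, 21.9 and 15.3 CPM in injured IP, 3.35, 7.3 and 2.76 in naive IP, 49.4, 36.6 and 62.3 in injured input, and 11.9, 12.3 and 13.3 in naive input. Injured lay above naive without overlap in both fractions, with log2 1.85 ± 0.40 in IP (adjusted p = 0.104) and 1.98 ± 0.40 in input (adjusted p = 0.0825). IP lay below input, with log2 -1.62 ± 0.39 in injured ganglia (adjusted p = 0.0337) and -1.49 ± 0.40 in naive ganglia (adjusted p = 0.0542). The site in Gm52180 (chr15:82266714-82266739, 1187 bases upstream) had 4.17, 7.53 and 4.74 CPM in injured IP, 0.0658, 0.243 and 1.0 in naive IP, 11.1, 10.4 and 12 in injured input, and 7.2, 4.15 and 4.06 in naive input. Its naive IP libraries were the lowest of all 12, with log2 3.60 ± 0.81 for injury in IP (adjusted p = 0.113) and -3.51 ± 0.80 for IP against input in naive ganglia (adjusted p = 0.0298).

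A site in Gm32525, whose strand was unresolved (chr13:21250226-21250265), had 8, 15 and 11 counts in injured IP, 0, 0 and 0 in naive IP, 78, 49 and 58 in injured input, and 117, 32 and 90 in naive input. Only the naive IP libraries had no counts. It was at least 86.8-fold lower in IP than in input of naive ganglia (adjusted p = 0.00659, called with each library left out) and at least 11.2-fold higher in injured than in naive IP (adjusted p = 0.0931). The Ggnbp2 site above had the same shape, at least 20.4-fold higher in injured than in naive IP, with an adjusted p of 0.092.

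**Figure D5:**
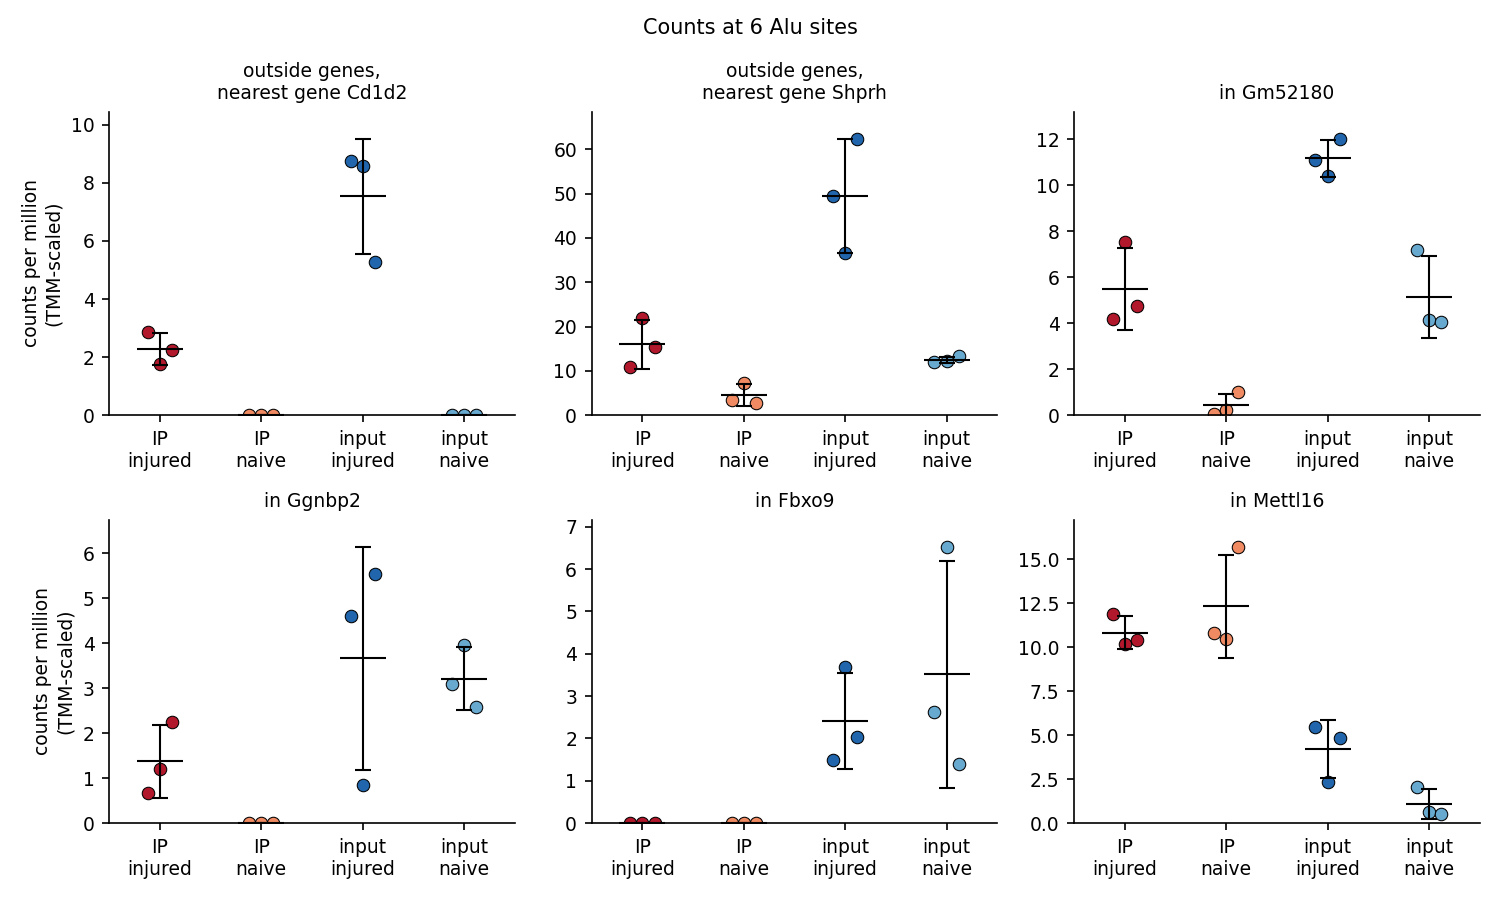
TMM-scaled CPM at 6 Alu sites, 1 panel each, in injured IP, naive IP, injured input and naive input. Points are libraries, the line is the mean and the bars are SD (n = 3). The site near Cd1d2 is at 0 in all naive libraries, that of Fbxo9 at 0 in all IP libraries and that of Ggnbp2 at 0 in naive IP, while that of Mettl16 lies higher in IP than in input.

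Of the 3330 Alu sites counted in all 6 injured libraries, 5 were at 0 in all 6 naive libraries (0.15%), against 45 of 31227 sites over all families (0.144%). Apart from the Cd1d2 neighbour, these included Prmt9 (chr8:77559358-77559383, 81 counts), an arginine methyltransferase gene, chr11:69806844-69806869 (123 counts) and chr5:121192027-121192052 (73 counts, with 9, 8 and 10 in injured IP and 8, 22 and 16 in injured input). Of the 3809 Alu sites counted in all 6 input libraries, 24 were at 0 in all 6 IP libraries (0.63%), against 150 of 33567 over all families (0.447%), among them 99 of B2 (0.848%). Of the 3061 counted in all 6 IP libraries, 3 were at 0 in all input libraries (0.098%), against 0.0789% over all families.

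A list of 59 genes was followed. Their products make, bind, edit, process or silence B1 or Alu RNA, or belong to the signal recognition particle. Of these genes, 44 were tested among 11369. For injury 0 of them were called in IP and 0 in input by edgeR (background 1.54% and 1.19%, the last with 0.906% higher). In IP against input, 1 was higher and 0 lower in injured ganglia (background 5.8%, with 1.86% higher and 3.93% lower), and 1 was higher and 1 lower in naive ganglia (background 6.74%, with 1.86% higher). The CPM below use the scaling of the single-site fit and the log2 values that of the gene fit, and the log2 ratio of CPM was higher than the fitted one by a median of 0.39 in injured and 0.31 in naive ganglia. Polr3g, a subunit of RNA polymerase III, had 91.8 ± 13.8 CPM in injured IP against 34.2 ± 10.2 in injured input (SD, n = 3 each), and 130 ± 15.9 in naive IP against 52.3 ± 4.11 in naive input. IP was higher, with log2 1.03 ± 0.21 (adjusted p = 0.00416) and 0.99 ± 0.21 (adjusted p = 0.00496). Ptbp1, a splicing repressor that binds polypyrimidine tracts, had 0.12 ± 0.105 CPM in naive IP against 6.43 ± 2.71 in naive input (log2 -5.95 ± 1.25, adjusted p = 0.00527).

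The other genes of the list gave values without a call. Srp14, which binds the Alu domain of 7SL RNA together with Srp9, had 654 ± 4.85 CPM in injured IP against 469 ± 84.5 in injured input, and 606 ± 38.2 in naive IP against 415 ± 53 in naive input (log2 0.10 and 0.24, adjusted p = 0.784 and 0.322). Adar, the editor of double-stranded RNA, had 39.9 ± 13.8 CPM in injured IP against 25.7 ± 13.5 in injured input, with log2 0.23 (adjusted p = 0.824). Of the groups within the list, 5 of 6 genes of signal recognition particle proteins and 16 of 20 of RNA polymerase III were tested. The same held for 7 of 11 of double-stranded RNA, 9 of 10 of exon and 3′-end choice and 7 of 12 of silencing. Srp9, Adarb1, Adarb2 and Hnrnpc were among those that did not pass the filter. The list's median log2 of IP over input was 0.12 in injured and -0.01 in naive ganglia, against 0.01 and -0.03 over all genes, and for injury 0.16 in IP and 0.07 in input, against 0.03 and 0.00.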

How the data were processed

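Per the submitters' processing notes, reads were handled with bcl2fastq 2.17, STAR and HTSeq on GRCm38 (mm10); how reads with several matches were treated and whether coordinates count from 0 is not given in the sources used here. The deposited table holds raw counts per interval for 12 libraries of 3 pools per group. Of its 178451 lines, 20 were damaged and left out, and 17 unnamed columns were not used. Two-sided tests were edgeR 4.0.16 quasi-likelihood fits (R 4.3.3) over all 12 libraries, with TMM factors, filterByExpr and Benjamini-Hochberg adjustment over all sites, families, family-by-position sums or genes tested, at a threshold of 0.05; site use was tested with edgeR's diffSpliceDGE. DESeq2 1.42.0, other scalings, no filter, the replicate block and leaving out each library were alternatives. Only the single-site edgeR fit was checked on simulated counts, for injury in IP and in input. The other fits and comparisons were not. Single sites are printed as TMM-scaled CPM.

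Genes reached 200 bases past their 3′ ends. A site from 100 bases before a 3′ end to 200 bases past it was at it. Of 35095 genes, the strand came from RefSeq names for 27024 and from the deposited counts, at 60 or more counts with 90% on 1 strand, for 2524; 5547 stayed without one. Where both readings existed (9394 genes), 91.3% gave the same strand. Named sites were the 10 with the highest mean CPM, up to 10 called higher and 10 lower per comparison with the largest log2 and no overlap, the 5 smallest p where fewer than 5 were called, and up to 5 per direction in the test of site use. The members, lists and rules were chosen with earlier results of these data known. Replicates are pools of mice, so p-values measure the spread between pools. Intervals (95%, exact) and floors (3 counts) cover counting error only, since no molecular identifiers are named in the sources used here.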

Additional observations from a re-analysis of the deposited data

How the results depend on the processing

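The single-site calls depended most on the processing. For IP against input in naive ganglia the 26 called Alu sites became 225 with DESeq2, 79 with no filter and 3 with only the 2 groups in the fit, and 3 to 55 with a library left out. In injured ganglia the 39 became 171 with DESeq2, 60 with no filter and 133 with only the 2 groups, and 1 to 27 with a library left out. For injury in IP the 0 became 22 with DESeq2, 8 with no filter and 0 to 3 with a library left out. For injury in input the 1 became 16 with DESeq2, 4 with no filter and 0 to 0 with a library left out. Fits with a library left out also test another set of sites, since the filter is recomputed; the other causes were not tested. Site use gave 1 call in naive and 0 in injured ganglia when tested among Alu and non-repeat sites only, and 0 to 5 and 0 to 1 with a library left out. Of 339 alternatives for the named calls, 146 kept the call, 193 lost it and 0 reversed it.

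The Alu family sum turned to -0.04 for injury in IP with factors from single sites (-0.05 to 0.07 with a library left out), was -0.23 in naive IP against input with those factors (adjusted p = 0.08), and had an interaction of 0.01 without near-identical sites (-0.18 to 0.03 with a library left out). These 2 settings, and the sums by position, were chosen after seeing the data. By position, factors from single sites gave -0.31 antisense (adjusted p = 0.0654), 0.42 at 3′ ends (0.00759) and -0.21 for unresolved strand (0.181) in naive ganglia, and 0.26 within 5 kb in injured ganglia (0.033). Scaling on sites outside repeats gave -0.10 within 5 kb in naive ganglia, and -0.17 within 5 kb and -0.02 at 3′ ends in injured ganglia, where 3′ ends without near-identical sites had 0.25 (0.0517); for injury in input it gave 0.11 at 3′ ends, 0.11 over 5 kb upstream and 0.03 within 5 kb. With a library left out, the ranges were -0.59 to -0.41 (antisense, naive), -0.50 to -0.27 (unresolved, naive), 0.13 to 0.32 (3′ ends, injured) and -0.01 to 0.18 (within 5 kb, injured); for injury in IP -0.05 to 0.12 (antisense), -0.08 to 0.03 (3′ ends) and -0.02 to 0.09 (outside); and for injury in input -0.06 to 0.12 (antisense), -0.10 to 0.09 (3′ ends), -0.08 to 0.14 (unresolved), -0.14 to 0.01 (over 5 kb) and -0.19 to 0.01 (within 5 kb).

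Class shares as percentage points moved when sites of at least 10 counts were counted in place of reads: at 3′ ends 0.981 naive and 1.13 injured; same strand 0.0532 for injury in IP, -6.23 naive and -3.84 injured; antisense 1.74 naive and 0.998 injured; unresolved 0.254 for injury in IP and 0.276 injured; outside -0.21 for injury in IP, 3.42 naive and 1.44 injured. With no reach past gene ends the naive 3′-end value was 1.27. The B1 gene list gave 2 calls with DESeq2 in injured ganglia and 1 to 2 with a library left out.

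The data do not settle whether the replicate numbers pair the libraries, and the labels do not say whether equal numbers share mice. The main tests did not pair them. Deviations of 18 same-numbered pairs correlated at -0.0269 to 0.124, and 36 other pairs at -0.0837 to 0.0455. Of the same-numbered pairs, 1 was above 0.1, that of IP naive 2 with IP injured 2. The best match had the same number in 18 of 36 combinations of library and group. Random matching among 3 libraries would give the same number in 1 of 3. With the replicate number as a block, the calls were 30 in naive and 39 in injured IP against input, 0 for injury in input, 2 for site use in injured ganglia and 3 in the B1 gene list in injured ganglia, and the Alu sum had an adjusted p of 0.00536 in naive ganglia. Of 624 alternative values that answer a comparison, 540 kept direction and side of the threshold, 58 moved, 16 lost and 2 gained the call, and 8 turned direction. The median Alu site had 7 counts over 12 libraries, which limits what single sites can show.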

Other observations

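The opposite zero pattern, counted in all 6 naive libraries and at 0 in all 6 injured ones, held for 5 of 3073 Alu sites (0.163%), against 5 of 26593 sites over all families (0.0188%), so that every site with it was an Alu site. Their totals were 9 to 33 counts over the 6 naive libraries. They lay antisense to Jmjd4 (9 counts), in Gm40035 (10), in Uhrf2 (33), and outside genes at chr19:18572663 and chr4:145407242 (20 each, with identical counts in the 12 libraries). No injury call was made at any of them by edgeR. The sites were chosen after their values were seen.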
